A study of Homo sapiens with 6 samples.

Results

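The genes described here are the polycystin family, the fibrocystin gene PKHD1 and the pseudogene copies of PKD1 in RNA from vesicles of cancer spheroids. They were chosen by name: PKD1, PKD2, PKD1L1, PKD1L2, PKD1L3, PKD2L1, PKD2L2, PKD1P1, PKD1P6 and PKHD1. Of these 10 names, 9 had a row among the 38167 genes counted. PKD1P6 had no row of its own, and the nearest row was PKD1P6-NPIPP1, a readthrough transcript whose span covers 6463 of the 29735 bases of PKD1P6. PKD1 was proposed because it stood out between the groups in an earlier analysis of the same counts, so its own difference between the groups is given as a description. Its near-identical copies may share reads with it and are not independent of that choice.

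Small extracellular vesicles were taken from the medium of Cal27 spheroids. Cal27 is an established line of squamous carcinoma cells from the tongue, and it was the only line used. The spheroids grew for 14 days in stiff Matrigel at 12 mg/mL (3 libraries) or for 14 days in soft Matrigel at 3 mg/mL (3 libraries). Matrigel is a gel of basement membrane proteins; the labels give its concentration and not a measured stiffness, so stiffness and the amount of gel protein cannot be told apart. All libraries came from total RNA with a directional kit and paired reads of 61 bases. The labels name the libraries biological replicates but do not say that they came from separate cultures, so p-values measure the spread between these libraries, which may be technical.

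PKD1 encodes polycystin-1, a very large membrane protein whose long outer part carries PKD repeats and which is cut at a site near the membrane. It pairs with polycystin-2, the cation channel made from PKD2, in primary cilia of kidney tubule cells, and loss of either gene causes autosomal dominant polycystic kidney disease. The 5′ part of PKD1 was duplicated several times along chromosome 16 during primate evolution, and the copies are annotated as pseudogenes, some of them transcribed.

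How far the copies repeat PKD1 was read from GENCODE 29 transcripts (GRCh38). PKD1 lies at chr16:2088708-2135898 on GRCh38, and PKD1P1 at chr16:16310134-16332477. PKD1P6 spans chr16:15125139-15154873, and PKD1P5 spans chr16:18374521-18402014. The longest PKD1 transcript has 14138 bases in 46 exons. PKD1P1 aligned to 46.9% of it at 98.0% identity, PKD1P6 to 33.9% at 98.0% identity, and PKD1P5 to 72.9% at 97.9% identity. The next 61 bases, the length of a read, open the coding sequence in exon 1 (transcript bases 210 to 270) and are shown because PKD1 and these 3 copies are letter for letter the same there:
PKD1, PKD1P1, PKD1P5 and PKD1P6: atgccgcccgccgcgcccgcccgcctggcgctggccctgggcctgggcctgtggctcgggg
The window in exon 23 (transcript bases 8440 to 8500) differs most between PKD1 and the copies among the windows that all of them hold, and capitals mark the bases at which any copy differs:
PKD1: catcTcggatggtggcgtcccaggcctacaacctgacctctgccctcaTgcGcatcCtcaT
PKD1P1: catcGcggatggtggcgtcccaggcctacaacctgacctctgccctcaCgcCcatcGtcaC
PKD1P5: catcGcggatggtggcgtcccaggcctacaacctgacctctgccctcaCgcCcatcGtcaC
PKD1P6: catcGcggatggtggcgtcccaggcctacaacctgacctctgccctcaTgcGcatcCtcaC
Counted from 1 at the window's 5′ end, PKD1P1 and PKD1P5 carry T5G, T49C, G52C, C57G and T61C, while PKD1P6 carries T5G and T61C.

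Of the 14078 windows of 61 bases in the PKD1 transcript, 3904 (27.7%) occurred without a mismatch in 11 genes elsewhere, all of them on chromosome 16. The last shared window ended at base 10448, in the first bases of exon 33. Counted by the exon in which a window starts, 14 exons, 33 to 46, held none. From exon 1 to exon 32 the share was 37.4%, reaching 100% in exons 2, 3, 4 and 9. Exon 15, which encodes most of the PKD repeats, had 22.4%. In the other direction 95.1% of PKD1P1 windows, 72.0% of PKD1P6 windows and 88.0% of PKD1P5 windows occurred in another gene of chromosome 16. PKD2, PKD1L1, PKD1L2, PKD1L3, PKD2L1, PKD2L2 and PKHD1 shared 0% of their windows with genes elsewhere. How reads that fit several places were counted was not given in the sources used here, and the counts of PKD1 and of its copies are uncertain gene by gene. For the other polycystin genes no window shared with a gene elsewhere was found in these transcripts. With genes that overlap their own position, PKD1L3 shared 157 windows (3.06%) and PKD2L2 shared 497 (21.9%). How reads that fall on overlapping genes were counted was not given either. Near-identical stretches and the rest of the genome were not searched.

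**Figure D1:**
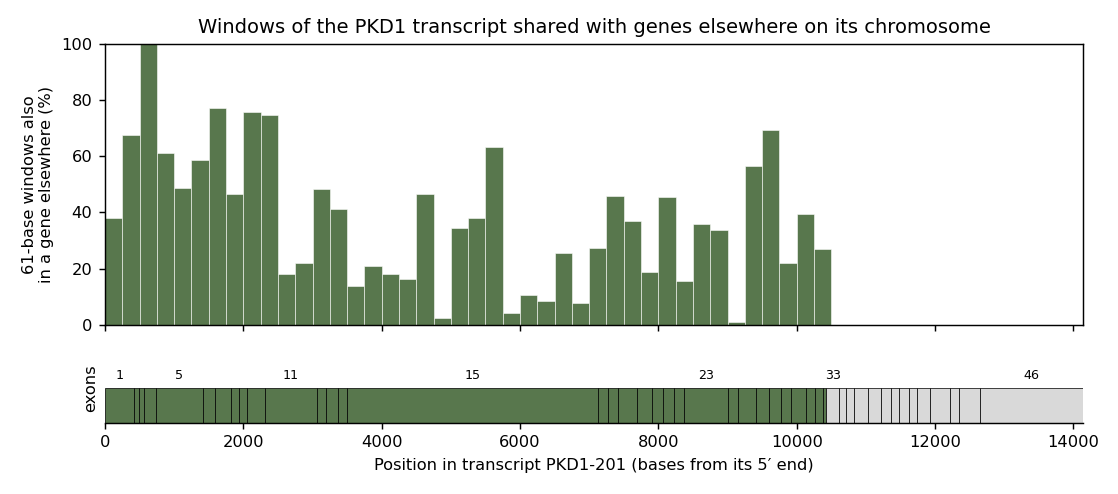
Share of 61-base windows (%, y axis) of the PKD1 transcript that occur without a mismatch in a gene elsewhere on chromosome 16, in bins of 250 bases from the transcript's 5′ end (x axis), above a map of its 46 exons. Green marks exons in which any such window starts. Shared windows run to base 10448, in exon 33's first bases, and the 3′ part holds none.

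The libraries held 2697502 to 2977837 counts in stiff and 2445498 to 2545385 counts in soft, and 97.5% to 97.9% of genes had at least 1 count in a library. Ribosomal RNA genes took 20.02% to 22.86% of counts in stiff and 2.97% to 8.87% in soft, while mitochondrially encoded genes took 0.162% to 0.202% in stiff and 1.48% to 1.81% in soft. Fold changes below are on a log2 scale, stiff minus soft, with a standard error, and compare CPM, counts scaled to a common library size by TMM (trimmed mean of M values). A call is an adjusted p under 0.05 in edgeR's quasi-likelihood test over the 31074 genes tested, of which 140 (0.451%) were called, 89 (0.286%) higher and 51 (0.164%) lower. An unadjusted p under 0.05 was found in 9.51% of them. In 2293 genes (7.38%) the 3 stiff libraries lay above the 3 soft ones and in 2102 (6.76%) they lay below, 14.1% in all. In bulk RNA of vesicles, fewer vesicles that carry a transcript and fewer copies of it in each vesicle cannot be told apart.

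All 9 genes with a row passed the filter on low counts and were tested, and 2 of them, PKD1 and PKD1P1, were called, both higher in stiff. The stiff libraries lay above the soft ones in 4 of the 9 and below them in 1. The median fold change of the 9 was 0.06, against -0.0048 over all genes tested. Since PKD1 was proposed for its difference and PKD1P1 shares its sequence, nothing is read from these shares beside the background of 0.451%.

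PKD1 was the most counted of the family. It had 972, 1024 and 1003 counts in the stiff libraries, against 832, 845 and 882 counts in the soft ones. These are 399.6, 384.3 and 381.4 CPM in stiff and 305.2, 306.1 and 332.6 CPM in soft. The lowest stiff library stood above the highest soft one. The fold change of PKD1 was 0.30 ± 0.069, a ratio of 1.23 (edgeR adjusted p = 0.00935). PKD1 had been proposed for this difference in an earlier analysis of the same counts, so that p is a description. With ribosomal RNA and mitochondrial genes left out of the table, the fold change of PKD1 was 0.31. TMM already trims genes with extreme differences, so leaving these out could change little and does not test their part. Scaled by library totals alone, the fold change of PKD1 was 0.036 (edgeR adjusted p = 0.750), and the median of all genes was -0.27.

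PKD1P1, the copy with a row of its own, had 269, 339 and 328 counts in stiff, against 239, 262 and 265 counts in soft. It averaged 120.8 ± 8.97 CPM in stiff and 94.2 ± 6.16 CPM in soft (SD, n = 3 each), with no overlap between the groups. PKD1P1 rose by 0.36 ± 0.091 (edgeR adjusted p = 0.0281). The call on PKD1P1 was lost when stiff replicate 2 (adjusted p = 0.243), stiff replicate 3 (0.159), soft replicate 1 (0.193) or soft replicate 2 (0.0892) was left out. That on PKD1 was lost when stiff replicate 1 (0.0897), stiff replicate 2 (0.0652) or soft replicate 2 (0.0890) was left out.

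Another 4 rows were readthrough rows, which join a PKD1 copy to a neighbouring gene, in 3 of the 4 rows a member of the NPIP family (nuclear pore complex interacting proteins, themselves a duplicated family). PKD1P2 had no row, although the gene at its position held 2681 of the PKD1 windows (19.0%), and was not analysed here. PKD1P4-NPIPA8 had 312, 351 and 333 counts in stiff and 307, 306 and 283 counts in soft. It averaged 128.9 ± 2.62 CPM in stiff and 110.1 ± 3.03 CPM in soft (SD, n = 3 each); the groups did not overlap, and its fold change of 0.23 ± 0.087 was not called (edgeR adjusted p = 0.297). In the remaining rows the groups overlapped. PKD1P5-LOC105376752 had 425, 521 and 578 counts in stiff and 459, 463 and 501 counts in soft, a fold change of 0.17 ± 0.078 (edgeR adjusted p = 0.448). PKD1P3-NPIPA1 had 329, 381 and 328 counts in stiff and 326, 363 and 384 counts in soft, a fold change of 0.03 ± 0.085 (edgeR adjusted p = 0.962). PKD1P6-NPIPP1, the least counted, had 93, 97 and 104 counts in stiff and 99, 128 and 118 counts in soft, a fold change of -0.16 ± 0.14 (edgeR adjusted p = 0.785). The 5 rows therefore ranged from -0.16 to 0.36, with PKD1 at 0.30 inside that range, and 4 of the 5 rows lay above 0 with a median of 0.17. The lowest, PKD1P6-NPIPP1, held only 587 of the PKD1 windows (4.17%). The readthrough rows may also count reads of the joined genes. The NPIP genes as a family had a median fold change of -0.11. Of the joined genes, NPIPA1 had 0.06 ± 0.26 and NPIPA8 had 0.26 ± 0.21, neither called. This range and the sum, ratio and pooled value below are thus not of PKD1 copies alone. The part of the joined genes was not tested.

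**Figure D2:**
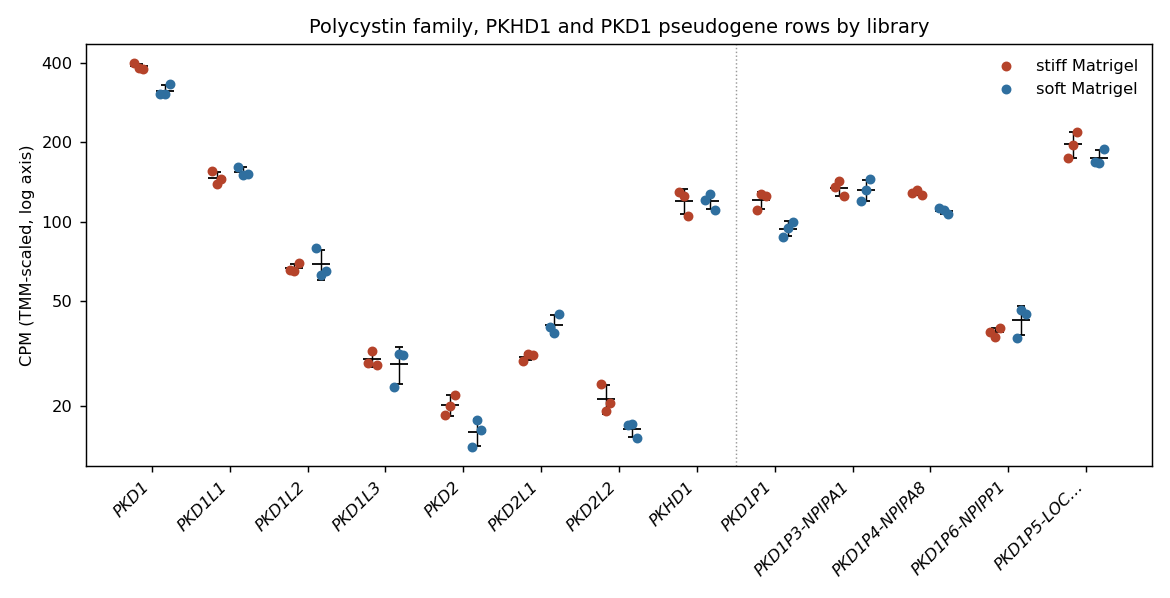
CPM scaled by TMM (log axis) of each polycystin gene, PKHD1 and each PKD1 pseudogene row in every library, stiff in red and soft in blue, with horizontal marks for the mean ± SD of 3 libraries. PKD1, PKD1P1, PKD1P4-NPIPA8, PKD2 and PKD2L2 have their 3 stiff libraries above the soft ones, and PKD2L1 has them below.

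Whether PKD1 moved with its copies was asked from the copies summed, since they share windows with each other and may share reads. The 5 rows together had 587.1, 633.9 and 635.3 CPM in stiff, against 524.5, 551.3 and 584.8 CPM in soft. The lowest stiff library stood just above the highest soft one. The sum was higher in stiff by 0.16 on the log2 scale, with an exact two-sided permutation p of 0.1, the smallest that 3 against 3 can give. Scaled by library totals alone, without TMM, the difference in the sum was -0.10; that scaling put the median of all genes at -0.27.

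The ratio of PKD1 to its summed copies does not depend on how libraries are scaled. It was 0.681, 0.606 and 0.600 in stiff, against 0.582, 0.555 and 0.569 in soft. All 3 stiff ratios lay above the soft ones, and stiff replicate 1 stood apart from the other stiff libraries. On the log2 scale the ratio averaged -0.67 ± 0.10 in stiff and -0.81 ± 0.034 in soft (SD, n = 3 each), a difference of 0.14 with an exact two-sided permutation p of 0.1, again the smallest possible. Without stiff replicate 1 the difference was 0.086, and set against PKD1P1 and PKD1P6-NPIPP1 alone it was 0.085 with an exact permutation p of 0.4. The ratio holds the PKD1 counts for which the gene was proposed, so its direction is not independent of that choice. PKD1 and the 5 copy rows counted as a single feature, which does not depend on how reads were split among those 6 rows but leaves out PKD1P2 and most of PKD1P6, had a fold change of 0.21 ± 0.069 and was not called (edgeR adjusted p = 0.169). That pooled value was called under 6 of 18 alternatives.

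Base composition moved with the difference. PKD1 has 67.0% G and C and PKD1P1 66.8%, which puts both in the richest of 10 equal bins of genes by GC content (61.5% to 85.5%). The median fold change in that bin was 0.13, against -0.04 in the bin poorest in GC. In the richest bin 51 of 2305 genes (2.21%) were called higher and 4 lower, whereas 32 of the 20746 genes below it (0.154%) were called higher. After each library was corrected for GC content, the fold change of PKD1 was 0.14 (adjusted p = 0.437), that of PKD1P1 was 0.20 (adjusted p = 0.461) and that of PKD1 pooled with its copies was 0.05 (adjusted p = 0.826), all from edgeR. The part of GC content in the stiff and soft difference was not tested beyond this correction. That of the ribosomal RNA share was not tested.

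**Figure D3:**
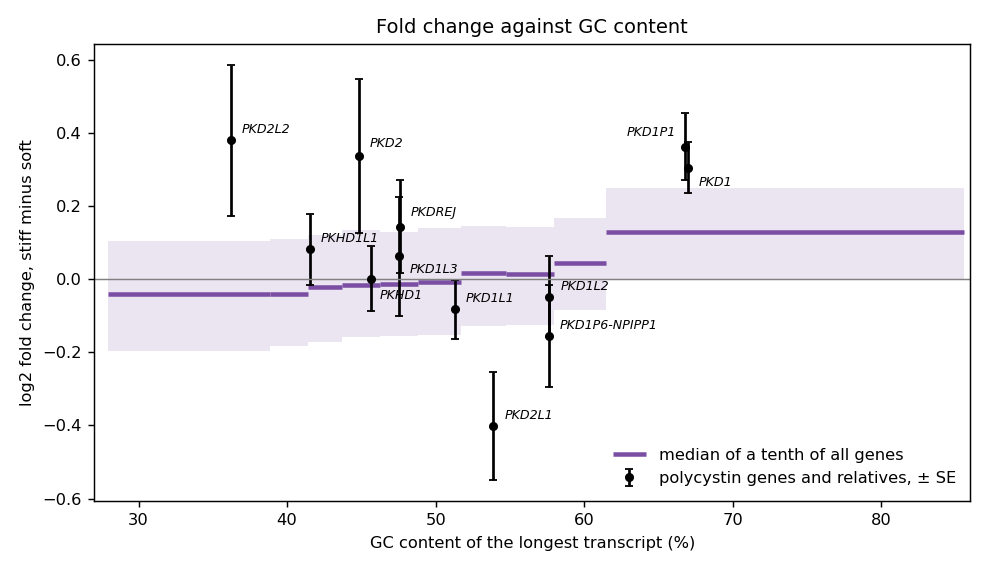
Log2 fold change, stiff minus soft (y axis), against the GC content of a gene's longest transcript (%, x axis) for the polycystin genes and relatives (points, ± SE), over the median (line) and quartiles (shading) of each of 10 bins of genes by GC content. PKD1 and PKD1P1 sit together in the bin richest in GC, whose median is 0.13.

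Genes beside PKD1 were read for the same difference. TSC2, the tuberin gene, an inhibitor of mTOR signalling, lies tail to tail with PKD1 and overlaps its 3′ end by 784 bases. It had 357, 431 and 401 counts in stiff and 366, 384 and 382 counts in soft, or 153.7 ± 7.57 CPM in stiff and 139.1 ± 4.89 CPM in soft (SD, n = 3 each). The groups did not overlap, and the fold change of 0.14 ± 0.082 was not called (edgeR adjusted p = 0.596). Of the 20 nearest genes with a row, 10 on each side, 19 were tested and 0 were called by edgeR, with 6 at an unadjusted p under 0.05. Their fold changes lay above 0 in 17 of 19, with a median of 0.14, and in 8 of them the stiff libraries lay above the soft ones and in 0 below. Over all genes tested, 0.451% were called, 9.51% had such a p and 7.38% had the stiff libraries above the soft ones. The neighbours had a median GC content of 63.8% (56.1% to 75.8%), and 14 of the 19 fell in the bin richest in GC, whose median fold change was 0.13. The part of GC content in the neighbours' values was not tested. The smallest p was that of TRAF7, a ubiquitin ligase gene, with 73.8 ± 2.00 CPM in stiff and 58.9 ± 2.49 CPM in soft (SD, n = 3 each; fold change 0.33 ± 0.11, edgeR adjusted p = 0.207). Inside PKD1 itself, the antisense transcript PKD1-AS1 had 29, 41 and 33 counts in stiff and 33, 19 and 26 counts in soft. Its groups overlapped and its fold change was 0.47 ± 0.26 (edgeR adjusted p = 0.589); the strand setting of the counting was not given in the sources used here, so reads of PKD1 and PKD1-AS1 may not be told apart.

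The duplicated blocks also hold microRNA genes, and the following mature sequences are shown because the copy inside PKD1 and those inside its pseudogenes can hardly be told apart (RefSeq, GRCh38.p14; capitals mark the seed, bases 2 to 8):
hsa-miR-6511b-3p: cCUCACCAccccuucugccugca
hsa-miR-6511a-3p: cCUCACCAucccuucugccugc
MIR6511B1, at chr16:2106669-2106753 inside PKD1, and MIR6511B2, inside PKD1P6, both give hsa-miR-6511b-3p. MIR6511A1 to MIR6511A4 lie in PKD1P3, PKD1P1, PKD1P2 and PKD1P4 and are 4 identical hairpins. The 2 mature forms share their seed and differ by C9U, counted from the 5′ end, and in length. The 6 rows of this family summed to 31, 27 and 38 counts in stiff and 24, 41 and 31 counts in soft, overlapping groups, with 1 to 9 counts per row and library. The identical hairpins MIR6770-1, MIR6770-2 and MIR6770-3 summed to 9, 7 and 9 counts in stiff and 14, 10 and 7 counts in soft, overlapping groups. The 5 rows of MIR3180, of which MIR3180-4 overlaps PKD1P6 and MIR3180-5 lies beside PKD1, summed to 24, 24 and 22 counts in stiff and 30, 35 and 36 counts in soft. For MIR3180 the stiff libraries lay below the soft ones, which was not tested. These libraries were not size-selected for mature microRNAs as far as the labels say, and reads of 61 bases are longer than a mature form, so the counts are of RNA that overlaps the hairpins.

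Among the channel subunits, none was called. PKD2, at chr4:88007635-88077777, encodes polycystin-2, the partner of polycystin-1. It had 45, 53 and 58 counts in stiff, against 38, 49 and 43 counts in soft. At 20.2 ± 1.79 CPM in stiff and 15.97 ± 1.92 CPM in soft (SD, n = 3 each), the groups did not overlap; the fold change was 0.34 ± 0.21 (edgeR adjusted p = 0.645). PKD2 has 44.9% GC and its GC-corrected fold change was 0.35.

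PKD2L1, at chr10:100288149-100330228, encodes a channel found in neurons that contact the cerebrospinal fluid and in sour taste cells of mice. It was the only polycystin gene whose stiff libraries all lay below the soft ones. It had 72, 84 and 82 counts in stiff, against 109, 104 and 118 counts in soft. The level was 30.8 ± 1.03 CPM in stiff and 40.7 ± 3.47 CPM in soft (SD, n = 3 each). The fold change was -0.40 ± 0.15 and was not called (edgeR adjusted p = 0.266, unadjusted p = 0.0072), and its 17 alternatives kept it below 0, over a range of -0.67 to -0.33. PKD2L2, at chr5:137889457-137942747, a relative expressed in testis, had 59, 51 and 54 counts in stiff, against 46, 47 and 40 counts in soft. It lay higher in all 3 stiff libraries, at 21.3 ± 2.65 CPM in stiff and 16.3 ± 1.08 CPM in soft (SD, n = 3 each), with a fold change of 0.38 ± 0.21 (edgeR adjusted p = 0.574).

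The PKD1-like genes encode further large proteins of the polycystin-1 kind, and in all of them the groups overlapped in CPM. PKD1L1, at chr7:47774614-47960906, acts with PKD2 in the embryonic node, where left and right are set. It had 378, 369 and 381 counts in stiff and 441, 417 and 402 counts in soft, or 155.4, 138.5 and 144.9 CPM in stiff and 161.8, 151.0 and 151.6 CPM in soft. Its fold change was -0.08 ± 0.081 (edgeR adjusted p = 0.809). PKD1L2, at chr16:81100875-81220394, is annotated in RefSeq as a transcribed pseudogene in humans. It had 159, 173 and 183 counts in stiff and 216, 173 and 172 counts in soft, where soft replicate 1 was the high library. The fold change of PKD1L2 was -0.05 ± 0.11 (edgeR adjusted p = 0.939) and 0.07 without soft replicate 1. PKD1L3, at chr16:71929538-72000402, forms a channel with PKD2L1 in mouse taste cells. It had 71, 86 and 75 counts in stiff and 64, 87 and 83 counts in soft, with a fold change of 0.06 ± 0.16 (edgeR adjusted p = 0.949).

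PKHD1, at chr6:51615299-52087615, encodes fibrocystin, a membrane protein of cilia, and its mutations cause autosomal recessive polycystic kidney disease. It had 314, 334 and 277 counts in stiff and 330, 351 and 294 counts in soft. The levels were 119.9 ± 12.8 CPM in stiff and 119.7 ± 8.23 CPM in soft (SD, n = 3 each), a fold change of 0.0010 ± 0.088 (edgeR adjusted p = 0.999). Its relative PKHD1L1, a fibrocystin-like gene, had a fold change of 0.08 ± 0.096 (edgeR adjusted p = 0.857). PKDREJ, a polycystin-1 relative of sperm, had 131, 134 and 146 counts in stiff and 137, 127 and 128 counts in soft, and in CPM its stiff libraries lay above the soft ones. The fold change of PKDREJ was 0.14 ± 0.13 (edgeR adjusted p = 0.777).

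**Figure D4:**
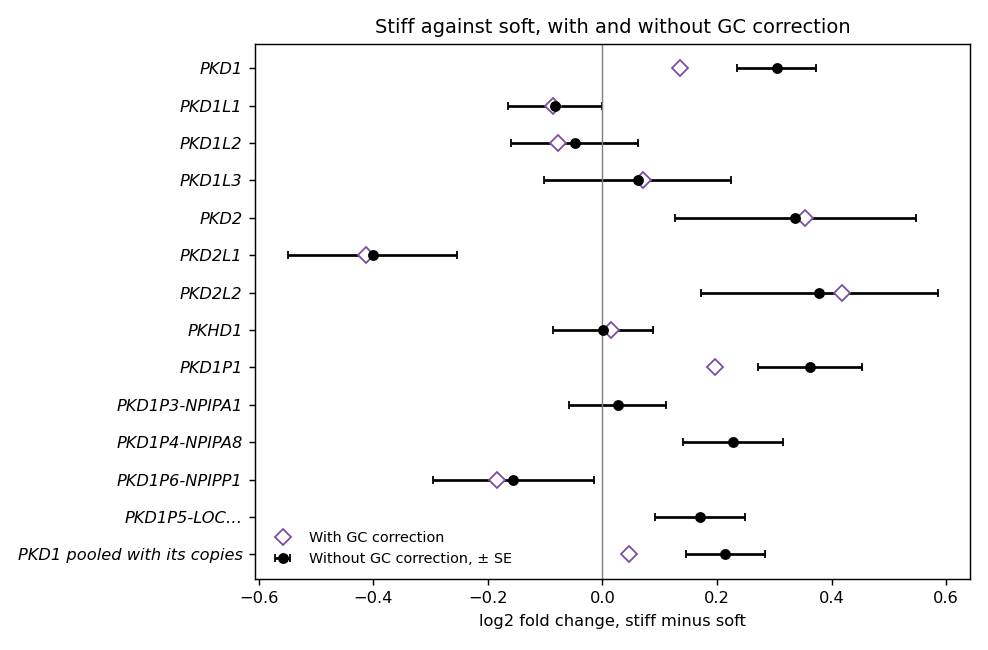
Log2 fold change, stiff minus soft (x axis), of each polycystin gene, PKHD1, each PKD1 pseudogene row and PKD1 pooled with its copies, without GC correction (black points, ± SE) and with it where a GC value exists (open diamonds). Correction leaves PKD1 at 0.14 and PKD1P1 at 0.20 and moves the other polycystin genes little.

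Levels between genes were compared as CPM per kb of exon, where the exons of all annotated transcripts of a gene were merged. PKD1 was highest, at 20.96 in stiff and 16.98 in soft, followed by PKD1L1 at 14.3 in stiff and 15.1 in soft. PKD1P6-NPIPP1 came next at 12.5 in stiff and 13.9 in soft, then PKD2L1 at 10.0 in stiff and 13.3 in soft, and PKD1P1 at 12.99 in stiff and 10.1 in soft. A gap separated these from PKHD1 at 6.87 in stiff and 6.86 in soft, PKDREJ at 6.92 in stiff and 6.26 in soft, PKHD1L1 at 6.73 in stiff and 6.36 in soft, and PKD1L3 at 5.77 in stiff and 5.53 in soft. PKD2L2 had 4.58 in stiff and 3.51 in soft, PKD1L2 had 3.58 in stiff and 3.70 in soft, and PKD2 was lowest at 3.67 in stiff and 2.90 in soft. Between neighbours in this order, the ranges over the 6 libraries were apart for PKD1 and PKD1L1 and for PKD1P1 and PKHD1, and overlapped for all other neighbouring pairs.

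These levels were set beside genes that squamous cells are not known to use. Such genes had counts as well: only 3 of the 382 olfactory receptor genes were at 0 in any library. A count alone therefore does not show that a gene was expressed. Whether counts at such levels come from transcripts or from a background was not tested. The 382 olfactory receptor genes had a median of 4.28 CPM per kb of exon (quartiles 3.33 and 5.84), and the protein-coding genes a median of 6.08. PKD1 stood at the percentile of 99.0 among olfactory receptors and 95.4 among protein-coding genes, and PKD1L1 at 97.4 among olfactory receptors. These classes differ from PKD1 in base composition. The median GC content was 43.1% in olfactory receptors and 48.9% in protein-coding genes, against 67.0% in PKD1. The part of GC content in these levels was not tested. PKD2 stood at 24.1 among olfactory receptors, PKD1L2 at 32.7 and PKD2L2 at 45.03, so by this length these 3 had levels below the median olfactory receptor. PKD1L3 stood at 73.3. The merged exons hold 18637 bases in PKD1L2 and 4653 in PKD2L2, while their longest transcripts hold 7379 and 2333. Levels by the longest transcript may rank these genes otherwise and were not computed. The 12 squamous epithelial markers, the genes that define the labelled cell type, had a median of 7.83 CPM per kb of exon and none was at 0 in any library, while 7 kidney tubule markers had a median of 7.47. In summed CPM the squamous markers ranged from 324 to 374 in stiff and 313 to 332 in soft, and the kidney markers from 215 to 228 in stiff and 219 to 223 in soft. The 6 fibroblast, 5 leukocyte and 3 endothelial markers had medians of 3.96, 3.66 and 5.94 CPM per kb of exon, and none of them was at 0.

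**Figure D5:**
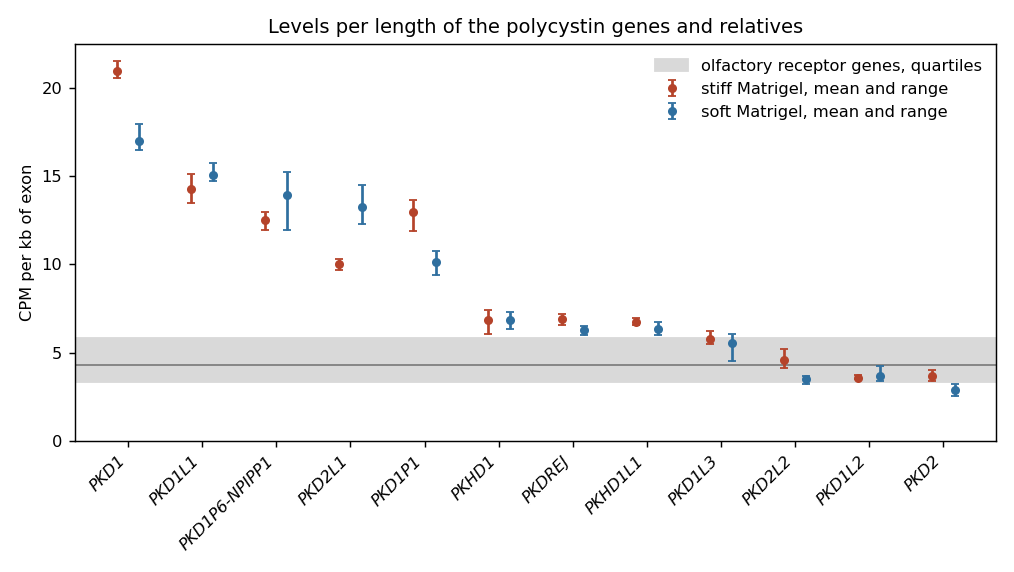
CPM per kb of exon (y axis) of the polycystin genes and relatives in stiff (red) and soft (blue) libraries, as the mean and range of 3 libraries, in order of their mean, over the median (line) and quartiles (grey) of 382 olfactory receptor genes. PKD1 is highest. By mean over the 6 libraries, PKD1L3, PKD2L2 and PKD1L2 lie inside those quartiles and PKD2 lies just below them.

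Genes that work with the polycystins were read from lists made for the purpose. Over all genes tested, 0.451% were called and 9.51% had an unadjusted p under 0.05. Nothing is therefore read from 0 calls in lists of this size. Of 16 genes of cystic disease and polycystin maturation, 0 were called by edgeR and 2 had an unadjusted p under 0.05, with 10 above 0 and a median fold change of 0.03. SEC61B, a subunit of the channel through which new proteins enter the endoplasmic reticulum, had the smallest p, at 3.71 ± 1.43 CPM in stiff and 7.11 ± 1.06 CPM in soft (SD, n = 3 each; edgeR adjusted p = 0.363). LRP5, a Wnt co-receptor, had the highest mean count, at 142.0 ± 8.74 CPM in stiff and 124.4 ± 6.01 CPM in soft (SD, n = 3 each; edgeR adjusted p = 0.422). Of 34 genes of polycystin signalling, among them those of cyclic AMP, calcium release and mTOR, 0 were called by edgeR and 2 had an unadjusted p under 0.05, with 20 above 0 and a median of 0.02. ADCY6, an adenylyl cyclase that makes cyclic AMP, had the smallest p of that list, at 94.6 ± 5.34 CPM in stiff and 81.1 ± 9.82 CPM in soft (SD, n = 3 each; edgeR adjusted p = 0.415). Of 46 cilium genes, 0 were called by edgeR and 1 had an unadjusted p under 0.05, with 18 above 0 and a median of -0.04. That gene was ARL3, a small GTPase that releases cargo in cilia, at 25.6 ± 5.81 CPM in stiff and 32.9 ± 2.12 CPM in soft (SD, n = 3 each; edgeR adjusted p = 0.438), while IFT140, a subunit of intraflagellar transport, was the most counted, at 179.6 ± 10.2 CPM in stiff and 168.7 ± 12.0 CPM in soft (SD, n = 3 each).

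The NPIP genes, a family with some members joined to PKD1 copies in the readthrough rows, lay mostly on the other side. The joined NPIPA1 and NPIPA8 were among those above 0. Of 17 tested, 0 were called by edgeR and 3 had an unadjusted p under 0.05, against 0.451% and 9.51% over all genes. Of the 17, 5 were above 0 and the median was -0.11. In 4 of them the stiff libraries lay below the soft ones and in 0 above, against 6.76% below and 7.38% above over all genes. NPIPB4 had the smallest p, at 26.9 ± 2.45 CPM in stiff and 35.2 ± 3.61 CPM in soft (SD, n = 3 each; fold change -0.39, edgeR adjusted p = 0.358), and NPIPB6 was the most counted, at 37.4 ± 3.90 CPM in stiff and 35.6 ± 6.09 CPM in soft (SD, n = 3 each). Among cell type markers the call was on KRT14, a keratin of basal epithelial cells, at 33.4 ± 6.17 CPM in stiff and 20.6 ± 3.802 CPM in soft (SD, n = 3 each), which rose by 0.69 ± 0.17 (edgeR adjusted p = 0.0281). That call was lost in 9 of 18 alternatives, and the 12 squamous markers had a median of 0.13. Of the 12, 8 lay above 0. Those below 0 were SFN, TP63, DSG3 and PKP1, with fold changes of -0.22, -0.12, -0.11 and -0.0025. An unadjusted p under 0.05 was found in 3 of the 12, against 9.51% of all genes. These were KRT14 and the keratins KRT17 and KRT5, the latter with fold changes of 0.46 and 0.32 (edgeR adjusted p = 0.296 and 0.504). In 4 of the 12 the stiff libraries lay above the soft ones and in 0 below. KRT17, KRT5, SFN, DSG3 and PKP1 were named after their values were seen. By edgeR 0 of 7 kidney, 0 of 6 fibroblast, 0 of 5 leukocyte and 0 of 3 endothelial markers were called, with 1, 0, 0 and 0 of them at an unadjusted p under 0.05. That kidney marker was SLC12A1, the salt transporter of the thick ascending limb, at 15.6 ± 2.13 CPM in stiff and 22.4 ± 3.801 CPM in soft (SD, n = 3 each; edgeR adjusted p = 0.326). The remaining genes with the smallest p or the highest mean count of a marker list were TP63, SLC34A1, COL3A1, COL1A1, PTPRC and VWF, with fold changes of -0.12, 0.08, 0.24, -0.04, -0.20 and -0.12 and no call. Of 320 olfactory receptor genes tested 0 were called by edgeR, 24 had an unadjusted p under 0.05, and the median was -0.04. The smallest p among them was that of OR1A1, at 25.9 ± 1.38 CPM in stiff and 17.4 ± 1.05 CPM in soft (SD, n = 3 each; edgeR adjusted p = 0.206), and OR4K13 had the highest mean count.

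Among 7130 genes with a mean of at least 100 counts, those whose log2 CPM followed PKD1 most closely over the 6 libraries were PCDH19, a protocadherin, with a Pearson r of 0.997, CELSR3, a cadherin of planar cell polarity (0.995), STK11, the kinase LKB1 (0.993), ABCB9, a lysosomal peptide transporter (0.992), and OTP, a homeobox gene of the hypothalamus (0.990). The 6 points share their library's scaling and fall into the 2 groups, so these values describe the difference between the groups as much as likeness within them. PKD1P1 came at rank 293 with 0.886 and PKD1P4-NPIPA8 at rank 317 with 0.880. PKD1P5-LOC105376752 had 0.590, PKD1P3-NPIPA1 had 0.335 and PKD1P6-NPIPP1 had -0.444. The 5 genes named lie on other chromosomes and are not among the 11 that share windows with PKD1.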

How the data were processed

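The authors deposited raw counts of reads per gene symbol, with no normalization, for 38167 genes in 6 libraries. The submitters' processing notes name FastQC 0.11.7, Trim Galore 0.4.2, cutadapt 1.9.1, STAR 2.6.1e, featureCounts 1.6.2 and DESeq2 1.26.0, without roles, and the build hg38. Annotation, strand setting and the treatment of reads with several matches are not given in the sources used here. Libraries held 2445498 to 2977837 counts, which sets the precision of low counts. Within a group, libraries were farther apart than counting error (chi-square per degree of freedom 1.53 to 3.86), so each counted as 1 sample. In the labels' descriptions 2 stiff libraries carry the same replicate number, and the titles' numbers were used.

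The comparison of stiff with soft used R 4.3.3 and edgeR 4.0.16: TMM scaling, filterByExpr, then robust quasi-likelihood F tests (two-sided) of a group term, with Benjamini-Hochberg adjustment over the 31074 genes tested. In simulated counts of 31175 genes for this comparison, 1.5-fold changes were recovered in 44.8%, 2-fold changes in 86.6% and 4-fold changes in 100% of planted genes, with 4.35% false calls. The simulation gave every gene the same dispersion of 0.007 and no group difference in ribosomal RNA or by GC content. Changes were planted above a minimum mean count, and none was below 1.5-fold. Recovery and false calls in the real counts may therefore differ. Summed copies and the ratio of PKD1 to them, with 0.5 added to counts, were tested by exact two-sided permutation of the 6 libraries. Symbols matched a RefSeq table (GRCh38.p14) for 36615 genes (95.9%); exon length and GC content came from GENCODE 29 for 27169 genes (71.2%), so 3 of the readthrough rows had no GC-corrected value. Windows and alignments (blastn 2.17.0) used GENCODE 29 transcripts, not a whole genome. Alternatives were other scaling factors, DESeq2 1.42.0, limma-voom (limma 3.58.1), other filters, a lowess correction for GC content, a replicate term and leaving out each library; pooling PKD1 with its copies, with the GC content of PKD1 for the pool, was added after seeing the data.

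The members, lists, rule for named genes and most alternatives were chosen with earlier results of these data known. The text names all members, every PKD1P row, PKDREJ, PKHD1L1, and in each list the called genes, that with the smallest p and that with the highest mean count, and the 5 genes most like PKD1. TSC2, PKD1-AS1 and the microRNA genes are named for their position. NPIPA1 and NPIPA8 are named as genes joined in the readthrough rows, after their values were seen.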

Additional observations from a re-analysis of the deposited data

How the results depend on the processing

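Under library totals alone, without TMM, the median of all genes was -0.27 and the values below shifted with it. That scaling called 4194 genes (31 higher, 4163 lower), put the summed copies at -0.10 and PKHD1 at -0.27 (reversed from their values with TMM), left PKD1 at 0.036 and PKD1P1 at 0.094 without a call, and called PKD1L1 (-0.35), PKD1L2 (-0.32), PKD2L1 (-0.67) and PKD1P6-NPIPP1 (-0.42). It also called 2 cystic disease, 10 signalling, 9 cilium, 1 kidney, 1 fibroblast, 1 leukocyte, 1 endothelial, 4 NPIP, 1 neighbouring and 29 olfactory receptor genes. The count of genes called was 67 in DESeq2, 43 in DESeq2 without its filter on mean count, 91 in limma-voom, 57 after GC correction (26 higher, 31 lower) and 59 after GC correction with the replicate block. PKD1 lost its call without the robust option (0.30, adjusted p = 0.1004), after GC correction (0.14) and after GC correction with the block (0.14), over a range of adjusted p of 0.000217 to 0.750. PKD1P1 lost it in limma-voom (0.36), DESeq2 without its filter (0.36), without the robust option (0.36), after GC correction (0.20) and after it with the block (0.20), over a range of 0.0190 to 0.499. The list of copies had 0 calls under those 5 settings. Squamous markers had 0 calls in DESeq2 with and without its filter, in limma-voom, and after GC correction with and without the block. PKD1 pooled with its copies was called with ribosomal RNA and mitochondrial genes left out (0.22), in DESeq2 (0.22), in DESeq2 without its filter (0.22), in limma-voom (0.22) and under the replicate block (0.22), over a range of adjusted p of 3.61e-06 to 0.834. The causes were not tested. Leaving out each library in turn gave 60 to 136 genes called, PKD1 at 0.29 to 0.35, PKD1P1 at 0.32 to 0.42 and the pooled value at 0.19 to 0.26, called without soft replicate 3 (adjusted p = 0.0327); the copies, the squamous markers and the olfactory receptors had 0 to 1 calls each.

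Whether the titles' replicate number pairs the libraries is not known. Deviations of same-numbered stiff and soft libraries from their group means had correlations of 0.0024, 0.0035 and -0.0036. Those of differently numbered libraries had -0.0079 to 0.0053. These values run over all genes tested, where counting error weighs heavily, so they cannot exclude a pairing. With the number as a block, 173 genes were called, PKD1 had an adjusted p of 0.000715 and the summed copies gave an exact sign-flip p of 0.25, the smallest 3 pairs allow. In groups of 3, counting error is largest for PKD2 and PKD2L2, with 38 to 59 counts per library, and depth limits what can be seen there.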
